A study of Homo sapiens with 10 samples.

Results

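The 44 genes described here encode proteins that copy the genome in S phase, supply its nucleotides or control entry into it. They were chosen by name, and each was read from the probe set assigned to that symbol alone with the highest mean over the 10 arrays. All 44 had such a probe set and passed the filter on low values, out of 10911 genes that passed it among 11963 with a probe set. Eukaryotic replication starts in G1, when the origin recognition complex with CDC6 and CDT1 loads the MCM2 to MCM7 helicase ring. In S phase the kinase CDC7, MCM10, CDC45 and the GINS complex turn that ring into a moving helicase, and the polymerases, held on DNA by the PCNA clamp, copy both strands. Transcription of many of these genes is driven by E2F factors as cells leave G1, so in breast cancer cells their mRNA is widely read as a sign of proliferation.

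The cells were T47D, an estrogen receptor-positive luminal breast cancer line, in the derivative T47D-Y, which lacks the progesterone receptor (PR). Clonal lines were compared as follows: iEV carries the inducible vector with no receptor, iWT carries wild type PR, and iKR carries the SUMO-deficient K388R receptor, in which the lysine that takes the SUMO modifier is replaced. The vector answers to AP21967, a dimerizer that joins the parts of an engineered transcription factor, and R5020 is a synthetic progestin that binds PR. All cells were selected in G418 and hygromycin B and were serum starved. AP21967 was given for 2 days and R5020 for the last 6 h. The sources differ on the starvation, which by the labels ran alongside the inducer and by the methods lasted 1 day after it. By the methods the doses were 1 nM AP21967 and 10 nM R5020; the labels' notation, read literally, gives 10 nM and 100 nM. Both receptor lines were profiled with neither compound, with either one and with both, whereas iEV was measured only without R5020, with and without AP21967. Each of the 10 conditions had 1 Affymetrix human gene expression array. A single line per vector was measured, so the vector and the clone cannot be told apart.

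The label was checked against markers. Luminal keratins KRT8, KRT18 and KRT19 lay between 14.30 and 15.04 on every array, whereas the luminal transcription factors ESR1 and FOXA1 ran from 8.68 to 10.80 and from 9.85 to 11.30 (log2 signal). Of the basal markers, KRT5 lay between 7.79 and 8.16, ACTA2 between 7.64 and 7.90 and KRT14 between 5.71 and 6.02. The mesenchymal genes VIM and COL1A1 lay between 8.59 and 9.18 and between 9.59 and 9.77, and the leukocyte gene PTPRC between 6.02 and 6.22. Signals of different probe sets cannot be ranked as amounts of RNA. PGR, the receptor gene, was at 6.25 and 6.17 in iEV and between 10.65 and 12.08 in the other lines, 11.12 in iWT and 10.65 in iKR with neither compound among them. The receptor lines therefore held PGR signal without AP21967, and on the arrays without R5020 AP21967 took PGR to 11.34 in iWT and to 12.08 in iKR. The difference shared by all 3 lines, iEV included, was 0.52 ± 0.24 (log2, SE, limma adjusted p = 0.58). On the arrays with R5020, PGR read 11.77 in iWT and 11.43 in iKR without AP21967, and 11.89 and 11.38 with it. The 3 prime minus 5 prime signal of the control probe sets, a measure of RNA integrity, ranged from 0.04 to 0.19 for ACTB and from -0.14 to -0.04 for GAPDH. The arrays' medians over all genes lay between 8.81 and 8.86.

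More of these genes were called between the lines than with either compound. The median level of the 44 genes was 10.15 and 10.25 on the iEV arrays, 9.67 to 9.75 on the 4 iWT arrays and 9.83 to 9.93 on the 4 iKR arrays (log2 signal). For 26 of 44 genes both iEV arrays lay above all 8 arrays of the receptor lines, a pattern that 13.8% of all genes tested showed. The means of the arrays without R5020 ran from iEV through iKR to iWT, from high to low, in 33 of 44 genes and in 17.5% of all genes. MCM3 was the only member with both iEV arrays below the 8 others, a pattern whose share over all genes is not given. These are RNAs from whole cultures, in which fewer cells in S phase and less RNA per cell cannot be told apart.

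**Figure D1:**
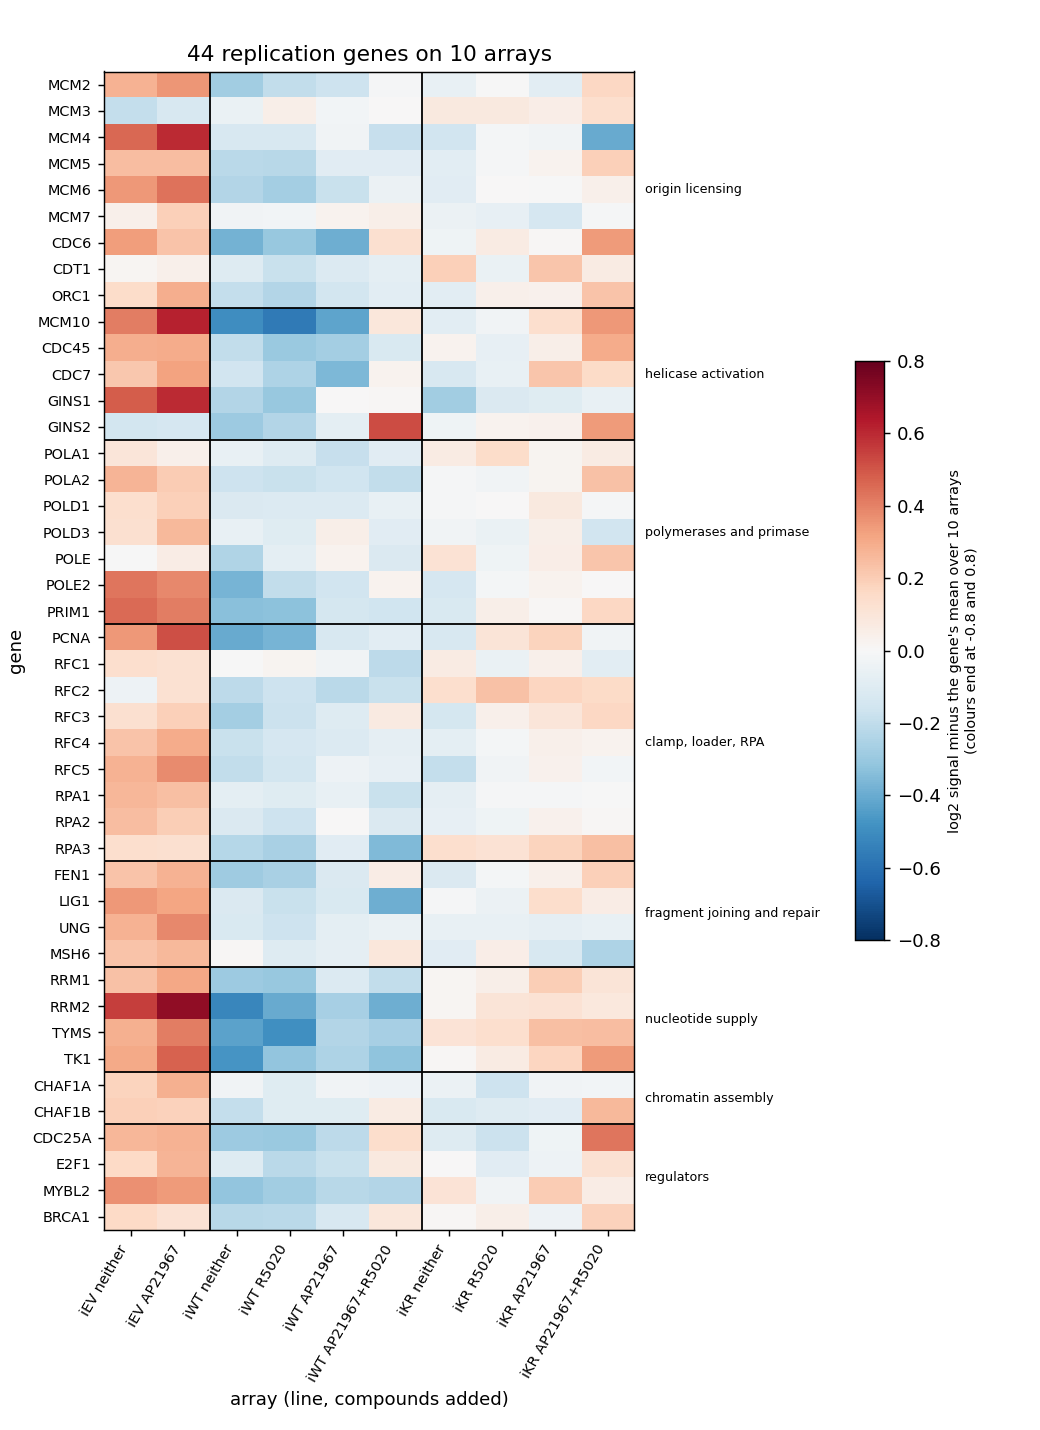
Rows are the 44 genes grouped by role and columns the 10 arrays; colour is the log2 signal minus the gene's own mean over the arrays. The 2 iEV columns are red for most genes, the iWT columns are mostly blue, and the columns with both compounds differ from their neighbours in a few rows, GINS2, CDC6, CDC25A and MCM10 among them.

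Between iWT and iEV, on the arrays without R5020, 38 of 44 genes were lower and 0 higher by limma (adjusted p under 0.05), against 11.8% and 12% of all genes tested. The median difference was -0.40 over the members and 0.01 over all genes (log2). In this fit the arrays with and without AP21967 stand as replicates, and the AP21967 difference shared by the lines is fitted. Its p-values therefore rest on how unevenly the lines differed between those 2 states, and not on the spread between independent cultures. The 6 genes that were not called were MCM3, MCM7, CDT1, GINS2, POLE and RFC1.

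Every gene of nucleotide supply was lower in iWT. RRM2, the small subunit of ribonucleotide reductase, which makes deoxynucleotides, read 12.33 and 12.49 in iEV, 11.26, 11.37, 11.51 and 11.39 in iWT, and 11.79, 11.88, 11.89 and 11.86 in iKR, where the iWT and iKR values follow the order neither compound, R5020, AP21967, both. The 3 lines did not overlap for RRM2, with iEV highest and iWT lowest, and iWT minus iEV was -1.02 ± 0.06 (SE, adjusted p = 4.1e-05) by limma. TK1, thymidine kinase of the salvage pathway, differed by -0.75 ± 0.06, TYMS, thymidylate synthase, by -0.68 ± 0.06 and RRM1, the large reductase subunit, by -0.47 ± 0.06 (log2, SE; the largest of these 3 adjusted p-values was 0.0011). A second probe set of RRM2 differed by -1.31 without and -1.17 with AP21967, whereas a second one of TYMS differed by -0.14 and 0.18. That TYMS probe set had a mean signal of 7.11, against 11.57 for the first.

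The helicase subunits did not move as one set. Values are given in the same order of arrays throughout. MCM2 read 10.92 and 10.99 in iEV, 10.36, 10.44, 10.47 and 10.63 in iWT, and 10.57, 10.63, 10.55 and 10.80 in iKR. Both iEV values were above the rest, and the highest value of iWT and of iKR was the one with both compounds.

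MCM3 read 10.81 and 10.88 in iEV, 10.95, 11.05, 10.98 and 11.005 in iWT, and 11.08, 11.08, 11.05 and 11.14 in iKR. Its values spanned only 0.33 over the 10 arrays, and iEV was lowest. MCM4 read 12.48 and 12.62 in iEV, 11.90, 11.90, 11.99 and 11.84 in iWT, and 11.87, 12.01, 11.99 and 11.62 in iKR. Here iEV lay above all other arrays by a wide margin, and the iKR array with both compounds was the lowest of all 10.

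MCM5 read 9.77 and 9.77 in iEV, 9.31, 9.30, 9.43 and 9.43 in iWT, and 9.44, 9.52, 9.55 and 9.71 in iKR. MCM6 read 11.77 and 11.85 in iEV, 11.19, 11.15, 11.24 and 11.37 in iWT, and 11.33, 11.42, 11.41 and 11.46 in iKR. For both genes iEV was highest. MCM7 read 10.74 and 10.89 in iEV, 10.66, 10.67, 10.72 and 10.74 in iWT, and 10.65, 10.63, 10.56 and 10.69 in iKR, and its lines overlapped, with the iEV array without AP21967 close to the highest of the iWT arrays.

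By limma, iWT minus iEV was -0.60 ± 0.06 (SE, adjusted p = 0.00026) for MCM4, -0.60 ± 0.06 (SE, adjusted p = 0.00027) for MCM6, -0.54 ± 0.06 (SE, adjusted p = 0.00064) for MCM2 and -0.40 ± 0.06 (SE, adjusted p = 0.0026) for MCM5. The other loading factors split in the same way. CDC6, the ATPase that helps load the helicase, differed by -0.67 ± 0.06 and ORC1, the largest origin recognition subunit, by -0.39 ± 0.06. CDT1, the partner of CDC6, differed by -0.13 ± 0.06 (SE, adjusted p = 0.13), MCM3 by 0.12 ± 0.06 (SE, adjusted p = 0.17) and MCM7 by -0.12 ± 0.07 (SE, adjusted p = 0.27).

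Among the genes that activate the helicase, 4 of 5 were lower in iWT. MCM10, a scaffold of the starting helicase, read 9.47 and 9.68 in iEV, 8.57, 8.50, 8.64 and 9.15 in iWT, and 8.98, 9.03, 9.20 and 9.41 in iKR. Both iEV arrays exceeded the rest and the iWT array with R5020 alone was lowest, and iWT minus iEV was -0.97 ± 0.06 (SE, adjusted p = 5.6e-05). GINS1, a GINS subunit, differed by -0.66 ± 0.06, CDC45, another part of the active helicase, by -0.53 ± 0.06 and CDC7, the kinase that fires origins, by -0.53 ± 0.11. GINS2, of the same complex as GINS1, differed by only -0.04 ± 0.07 (SE, adjusted p = 0.69).

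The clamp PCNA read 12.16 and 12.34 in iEV, 11.42, 11.45, 11.69 and 11.73 in iWT, and 11.69, 11.92, 11.997 and 11.79 in iKR. The iEV arrays were again above all others, and iWT minus iEV was -0.70 ± 0.06 (SE, adjusted p = 0.0002). Of the clamp loader and the single-strand binding protein RPA, RFC2, RFC3, RFC4, RFC5, RPA1, RPA2 and RPA3 were lower, by between -0.25 (RFC2) and -0.45 (RFC5), and RFC1 differed by -0.14 ± 0.05 (SE, adjusted p = 0.11). Among the polymerases, POLE2, the second subunit of polymerase epsilon, and PRIM1, the catalytic primase, led with -0.67 ± 0.07 and -0.67 ± 0.07. POLA2, POLD1, POLD3 and POLA1 were lower by smaller amounts, from -0.40 for POLA2 to -0.19 for POLA1. Without probe sets ending in _x_at or _s_at the calls of POLD3 and POLA1 were lost (adjusted p = 0.05001 and 0.062), and POLE itself differed by -0.13 ± 0.08 (SE, adjusted p = 0.3).

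All genes of the remaining roles were called lower in iWT. FEN1 and LIG1, which trim and join lagging-strand fragments, differed by -0.45 and -0.45, and the repair genes UNG and MSH6 by -0.43 and -0.27. The histone chaperone subunits CHAF1A and CHAF1B differed by -0.26 and -0.33. Of the regulators, MYBL2, a transcription factor of cycling cells, differed by -0.62 ± 0.06 (SE, adjusted p = 0.00034), CDC25A, a phosphatase that activates the S-phase kinase, by -0.52 and BRCA1 by -0.31. E2F1, a founding member of the E2F factors, read 9.02 and 9.14 in iEV, 8.76, 8.65, 8.69 and 8.95 in iWT, and 8.87, 8.77, 8.83 and 8.99 in iKR. Its iEV values were the highest, although the array with both compounds came close in both receptor lines, and iWT minus iEV was -0.36 ± 0.07 (SE, adjusted p = 0.0067).

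**Figure D2:**
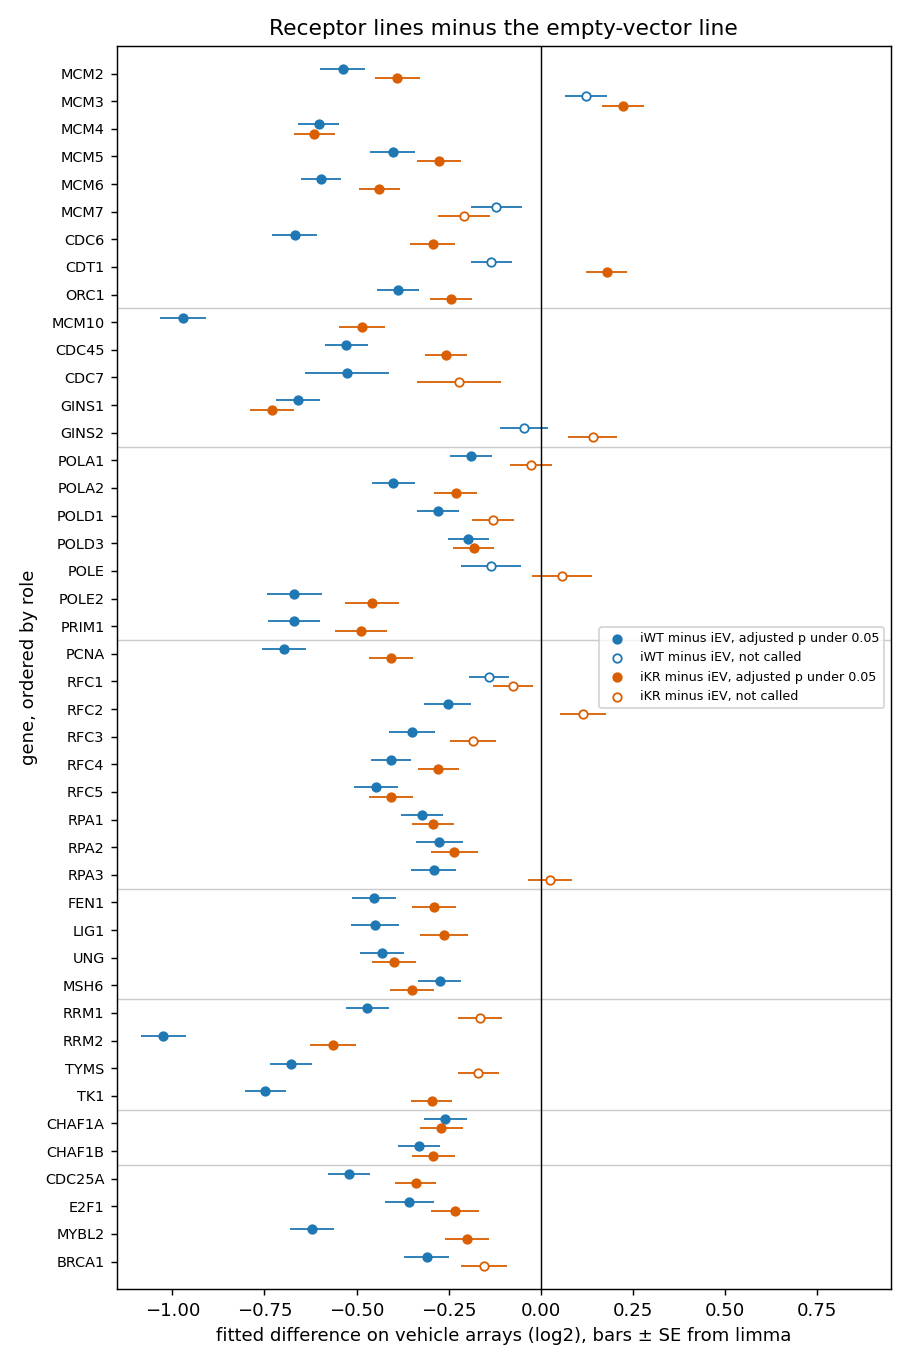
Points are the fitted difference (log2) of iWT (blue) and iKR (orange) from iEV on the arrays without R5020, with limma's standard error; filled points passed an adjusted p of 0.05. Most blue points lie left of the orange ones, and MCM3 lies right of 0 in both.

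Fewer of these genes were called between iKR and iEV. By limma 29 of 44 genes were lower and 2 higher, against 12.8% and 12.9% of all genes, with a median difference of -0.26 over the members and close to 0 over all genes. This comparison uses the same 2 iEV arrays as the one before, so the resemblance of the 2 patterns is not independent. The greatest differences were those of GINS1 at -0.73 ± 0.06 (SE, adjusted p = 0.00014), MCM4 at -0.61 ± 0.06 (SE, adjusted p = 0.00022) and RRM2 at -0.56 ± 0.06 (SE, adjusted p = 0.00056). PRIM1 (-0.49 ± 0.07), MCM10 (-0.49 ± 0.06), POLE2 (-0.46 ± 0.07), MCM6 (-0.44 ± 0.06), RFC5 (-0.41 ± 0.06), PCNA (-0.41 ± 0.06), UNG (-0.40 ± 0.06), MCM2 (-0.39 ± 0.06) and MSH6 (-0.35 ± 0.06) followed.

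By smaller amounts CDC25A, TK1, RPA1, CDC6, CHAF1B, FEN1, RFC4, MCM5, CHAF1A, LIG1, CDC45, ORC1, RPA2, E2F1, POLA2, MYBL2 and POLD3 were lower too, down to -0.18 for POLD3. MCM3 was higher by 0.22 ± 0.06 (SE, adjusted p = 0.025) and CDT1 by 0.18 ± 0.06 (SE, adjusted p = 0.049), the latter close to the threshold. Some of these calls rested on the processing. MYBL2 lost its call in 4 of 7 alternatives (adjusted p up to 0.058), POLD3 in 3 of 7 (up to 0.063), CDT1 in 2 of 6 (up to 0.056) and E2F1 and MCM5 in 1 of 7 each (0.15 and 0.13, without probe sets ending in _x_at or _s_at). The DNA precursor enzymes TYMS and RRM1, both lower in iWT, were not called in iKR, at -0.17 ± 0.06 (SE, adjusted p = 0.064) and -0.17 ± 0.06 (SE, adjusted p = 0.081). For RRM1 the size depended on the probe set. The first gave -0.22 without and -0.11 with AP21967, and a second, with a mean signal of 10.47, gave -0.36 and -0.38.

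In single-array differences, 10 members were lower by over 1.5 fold in iWT than in iEV without AP21967 and 10 with it, against 2.73% and 2.56% of all genes. Of these, RRM2, MCM10, TK1, PCNA, TYMS, CDC6 and GINS1 passed in both states. In iKR 2 members did so without AP21967 (GINS1 and MCM4) and 3 with it (those 2 and RRM2), where 2.24% of all genes did in each state. These differences rest on 1 array a side and carry no p.

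Set against each other, iKR was above iWT in most of these genes. In all 4 matched conditions iKR exceeded iWT for 33 of 44 genes, as it did for 16.4% of all genes, and the 4 iKR arrays lay wholly above the 4 iWT arrays for 17 members and for 5.89% of all genes. MCM7 was the only member with iKR below iWT in each condition, and the share of all genes with that pattern is not given. By limma, with the 4 conditions as replicates of a line difference, 13 members were higher in iKR and 0 lower, against 4.18% and 2.69% of all genes, and the median difference was 0.17 over the members and close to 0 over all genes (log2).

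All genes of nucleotide supply were called. TYMS was higher in iKR by 0.54 ± 0.05 (SE, adjusted p = 0.00081), TK1 by 0.49 ± 0.06 (SE, adjusted p = 0.0025), RRM2 by 0.47 ± 0.05 (SE, adjusted p = 0.0013) and RRM1 by 0.32 ± 0.04 (SE, adjusted p = 0.0054). TYMS read 11.85 and 11.97 in iEV, 11.13, 11.08, 11.33 and 11.30 in iWT, and 11.68, 11.70, 11.81 and 11.82 in iKR. Every iKR value was above every iWT value and below both iEV values. The second TYMS probe set, however, gave differences of -0.0028, 0.08, -0.08 and 0.11, in the order neither compound, R5020, AP21967, both. Its mean signal was 7.11, against 11.57 for the first.

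The other called members were MCM10 (0.44 ± 0.06), RPA3 (0.40 ± 0.06), RFC2 (0.37 ± 0.05), MYBL2 (0.35 ± 0.05), CDC6 (0.33 ± 0.05), CDC45 (0.30 ± 0.05), PRIM1 (0.27 ± 0.05), CDT1 (0.22 ± 0.05) and ORC1 (0.22 ± 0.05). None of MCM2 to MCM7 was among them. MCM2, MCM5 and MCM6 differed by 0.17, 0.19 and 0.17 with adjusted p-values from 0.066 to 0.098, PCNA by 0.28 ± 0.07 (SE, adjusted p = 0.052), and E2F1 by 0.10 ± 0.05 (SE, adjusted p = 0.25). The count of called members was 7 without the arrays with neither compound and 8 without those with AP21967 alone. It was 10 without those with R5020 alone and 22 without those with both compounds. The count thus turned on which conditions stood as replicates. Shares over all genes are not given for these settings, so the shift cannot be called particular to these genes. Over the alternatives run, CDC6, CDC45, CDT1, MYBL2, ORC1 and PRIM1 lost their calls in 1 to 4 of 10 or 11 each, with adjusted p up to 0.23, and TYMS, TK1, RRM2, RRM1, MCM10, RPA3 and RFC2 in 0.

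Genes of neighbouring processes moved with the lines too. Of 12 mitotic genes, 12 were lower in iWT than in iEV, with a median of -0.87 (log2), and 11 (all but CDK1) were higher in iKR than in iWT, with a median of 0.53. Over all genes the shares were 11.8% and 4.18%. Between iKR and iEV 9 of the 12 were lower and 1, cyclin B2 (CCNB2), higher, with a median of -0.29, where 12.8% and 12.9% of all genes passed. Their mean level was 10.45 and 10.59 in iEV, 9.62 to 9.80 in iWT and 10.16 to 10.31 in iKR. Of 36 further replication and S-phase genes, 19 were lower and 3 higher in iWT than in iEV, against 11.8% and 12% of all genes. In iKR 14 were lower and 4 higher than in iEV, against 12.8% and 12.9%, so the higher counts against iEV did not exceed the shares. Between iKR and iWT 9 were higher and 1 lower, against 4.18% and 2.69%. Of the 36, ATAD2, a chromatin ATPase that cooperates with E2F and MYC factors, differed most, by -1.09 ± 0.06 (SE, limma adjusted p = 2.5e-05) for iWT minus iEV. POLD2, a polymerase delta subunit, was higher by 0.41 ± 0.06 (SE, adjusted p = 0.0018). In the G1/S control list of 16, 8 were lower and 2 higher in iWT than in iEV, where 11.8% and 12% of all genes were. Cyclin A2 (CCNA2) differed by -1.06 ± 0.06 and cyclin E2 (CCNE2) by -0.74 ± 0.09, CCND1, CCNE1, E2F8 and RBL1 by -0.26, -0.26, -0.68 and -0.43, and E2F3 by 0.35. The kinase inhibitors did not run one way, with CDKN1A higher by 0.59 ± 0.05 and CDKN1B and CDKN1C lower, at -0.41 ± 0.06 and -0.30 ± 0.06.

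Some markers of cell identity were called between the lines as well. Of the 10 luminal markers, ESR1, GATA3 and SPDEF were called lower in iKR than in iWT, at -0.96 ± 0.13, -0.27 ± 0.05 and -0.37 ± 0.06, where 2.69% of all genes were. Between iKR and iEV, ESR1, GATA3 and XBP1 were called lower, at -0.82 ± 0.10, -0.28 ± 0.06 and -0.34 ± 0.06, where 12.8% of all genes were. XBP1 was also called lower in iWT than in iEV (-0.35 ± 0.06), as was VIM (-0.33 ± 0.07), and ACTA2 was called higher (0.21 ± 0.06). In that comparison 11.8% of all genes were lower and 12% higher, and 1 luminal marker of 10 is of the same order. On the arrays without R5020 the mean of the luminal list was 13.08 and 13.09 in iEV, 13.11 and 13.12 in iWT and 12.98 and 12.90 in iKR. The part of these markers in the replication values was not tested. Whether the proportion of cycling cells differed between the lines was not tested.

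AP21967 by itself called no member. By limma on the 6 arrays without R5020, with the 3 lines as replicates, 0 of 44 members and 0% of all genes passed in either direction (0% higher, 0% lower), and at an unadjusted p under 0.05 there were 12 members higher and 0 lower, among 501 higher and 480 lower of all genes. The median difference was 0.06 over the members and 0.0018 over all genes (log2). The highest values were those of PCNA at 0.25 ± 0.05 (SE, adjusted p = 0.48), TK1 at 0.19 ± 0.05 (SE, adjusted p = 0.48) and GINS1 at 0.18 ± 0.05 (SE, adjusted p = 0.48), and the lowest those of POLA1 at -0.07 ± 0.05 (SE, adjusted p = 0.67), MSH6 at -0.03 ± 0.05 (SE, adjusted p = 0.88) and CDC6 at -0.03 ± 0.05 (SE, adjusted p = 0.9). In single arrays PCNA differed by 0.17 in iEV, 0.27 in iWT and 0.31 in iKR. The iEV line, with no receptor, thus showed a value in the same direction.

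The array with AP21967 exceeded its partner in all 3 lines for 19 members, against 15.8% of all genes. For RFC1 and POLA1 it was below its partner in all 3, a pattern whose share over all genes is not given. The 4 nucleotide supply genes, RRM1, RRM2, TYMS and TK1, were among the 19, each with a p under 0.05 before adjustment. The members' median difference was 0.06 in iEV, 0.09 in iWT and 0.08 in iKR. The 12 mitotic genes were also all above 0, 7 of them at an unadjusted p under 0.05 and none after adjustment.

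R5020 changed few of these genes. With AP21967, limma over the 2 receptor lines called 4 of 44 members higher and 0 lower, against 5.23% and 6.25% of all genes, and 4 of 44 is of the same order as the share of higher calls over all genes. The median difference was 0.03 over the members and 0.01 over all genes (log2). Before adjustment, limma's p was under 0.05 for 9 members in the higher and 1 in the lower direction. Among all 10911 genes tested it was so for 1335 and 1589. The receptor lines stand as replicates in this fit, and a difference between the receptors was not tested. As a check of the treatment, FKBP5, a classic progestin-responsive gene, rose by 2.99 ± 0.08 (SE, adjusted p = 3.8e-07).

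GINS2, a subunit of the helicase-activating GINS complex, read 11.42 and 11.43 in iEV, 11.27, 11.33, 11.49 and 12.09 in iWT, and 11.53, 11.59, 11.60 and 11.91 in iKR. In each receptor line the array with both compounds stood above its 3 neighbours and above both iEV arrays. R5020 minus vehicle with AP21967 was 0.60 in iWT, the only member past 1.5 fold (which 1.59% of all genes passed upward and 1.02% downward), and 0.31 in iKR, where 3.02% and 3.16% of all genes passed and 0 members did. The shared difference was 0.46 ± 0.09 (SE, adjusted p = 0.014) by limma.

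CDC6 read 8.21 and 8.10 in iEV, 7.49, 7.57, 7.48 and 8.002 in iWT, and 7.84, 7.93, 7.88 and 8.22 in iKR. Within each receptor line the array with both compounds was highest, and in iKR it exceeded both iEV arrays. The CDC6 difference was 0.52 for iWT and 0.33 for iKR, 0.43 ± 0.08 (SE, adjusted p = 0.012) together, but by a further probe set the iWT difference was 0.69 and the iKR difference only 0.05. With the mean of its probe sets, the adjusted p was 0.059.

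CDC25A read 8.91 and 8.92 in iEV, 8.35, 8.35, 8.44 and 8.78 in iWT, and 8.54, 8.47, 8.61 and 9.08 in iKR. The differences were 0.35 in iWT and 0.46 in iKR, 0.41 ± 0.08 (SE, adjusted p = 0.012) together, and the second probe set gave 0.37 and 0.32. MCM10, whose values are given above, differed by 0.51 in iWT and 0.21 in iKR, 0.36 ± 0.09 (SE, adjusted p = 0.039) together. Its iWT value with both compounds stood apart from the other 3 iWT values, whereas the iKR values lay in smaller steps. With cyclic loess scaling its adjusted p was 0.059.

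**Figure D3:**
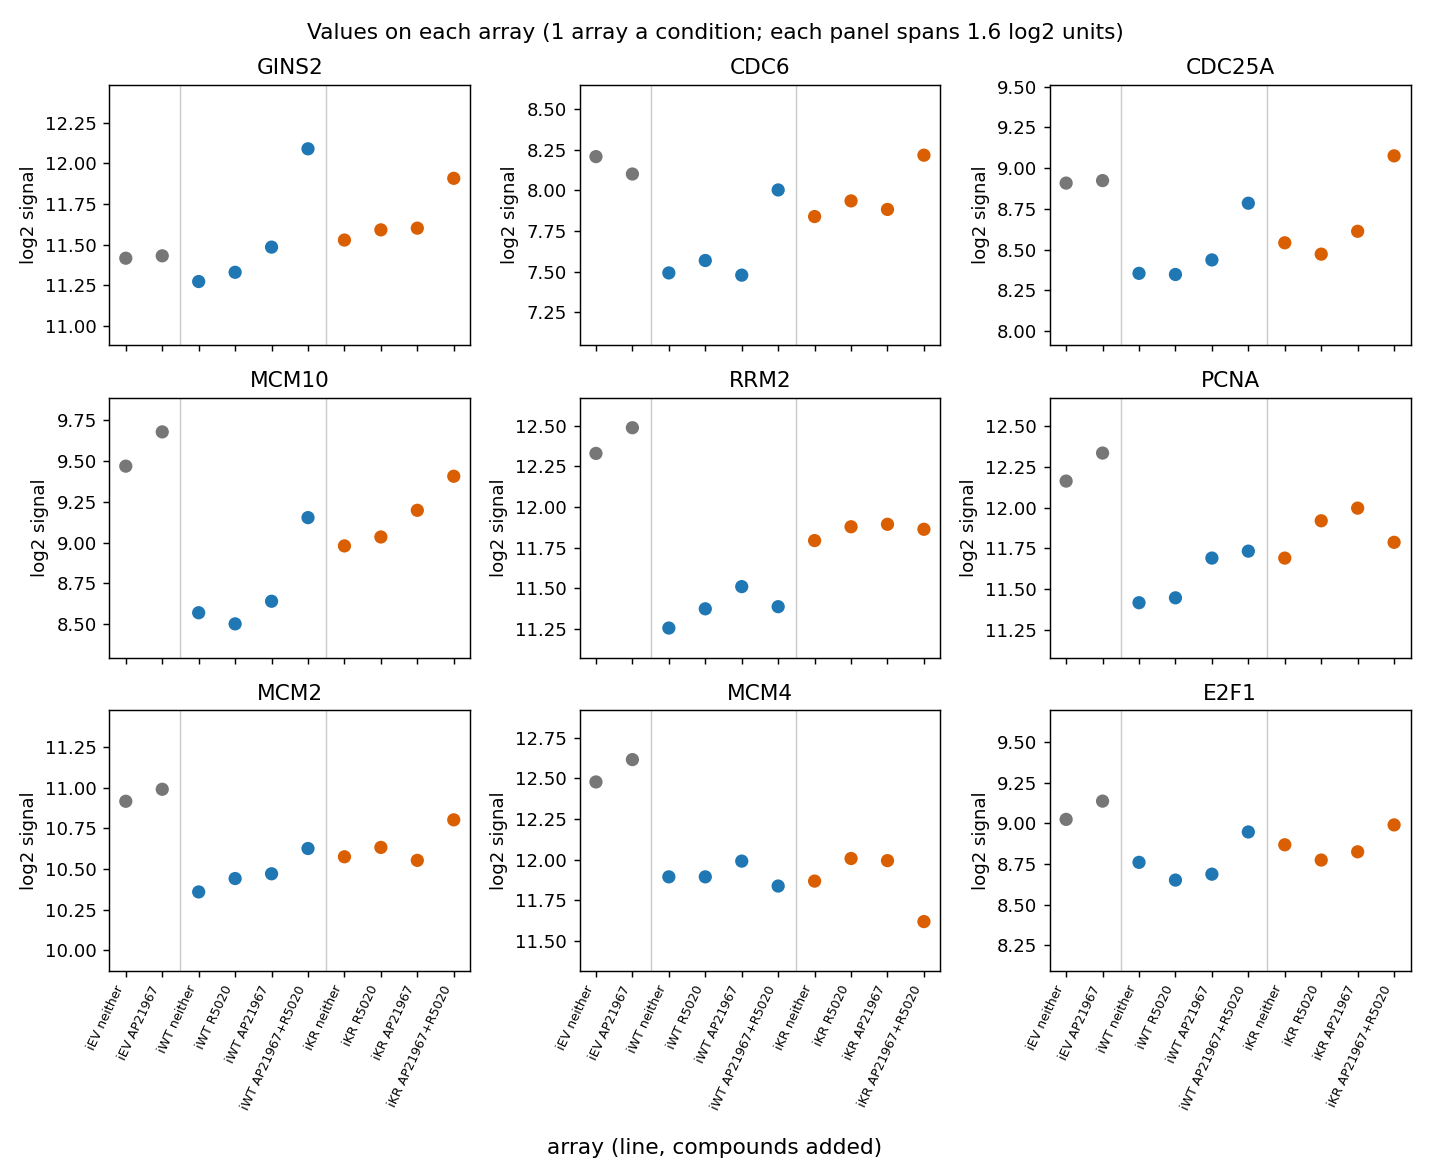
Log2 signal on each of the 10 arrays (iEV grey, iWT blue, iKR orange; 1 array a condition, so there are no error bars) for 9 of the genes. GINS2, CDC6, CDC25A and MCM10 peak within each receptor line on the array with both compounds, whereas RRM2 and PCNA follow the lines.

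The promoters of these 4 genes are shown because they were the members that rose with R5020. The sequences are RefSeq windows on GRCh38.p14 from 250 bases before to 50 after the annotated start, written 5′ to 3′ on the gene's own strand, and capitals mark a match to an E2F-type motif (TTTCCCGC, TTTGGCGC, TTTGCCGC or TTTCGCGC on either strand, overlaps allowed). The windows are chr16:85688905-85689204 (minus strand) for GINS2, chr17:40287629-40287928 (plus strand) for CDC6, chr3:48188368-48188667 (minus strand) for CDC25A and chr10:13161308-13161607 (plus strand) for MCM10.
GINS2: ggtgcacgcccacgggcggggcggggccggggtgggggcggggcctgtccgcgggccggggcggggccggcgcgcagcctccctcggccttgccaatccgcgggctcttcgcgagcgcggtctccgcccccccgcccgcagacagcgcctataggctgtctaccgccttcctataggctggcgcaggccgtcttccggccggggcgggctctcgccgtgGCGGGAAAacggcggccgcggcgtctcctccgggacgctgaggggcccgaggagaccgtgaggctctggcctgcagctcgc
CDC6: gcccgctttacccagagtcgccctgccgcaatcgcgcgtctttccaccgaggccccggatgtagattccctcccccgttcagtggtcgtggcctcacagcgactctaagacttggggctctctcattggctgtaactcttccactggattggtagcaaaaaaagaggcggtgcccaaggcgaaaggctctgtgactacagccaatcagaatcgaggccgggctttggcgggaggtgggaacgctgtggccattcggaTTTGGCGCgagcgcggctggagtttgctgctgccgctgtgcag
CDC25A: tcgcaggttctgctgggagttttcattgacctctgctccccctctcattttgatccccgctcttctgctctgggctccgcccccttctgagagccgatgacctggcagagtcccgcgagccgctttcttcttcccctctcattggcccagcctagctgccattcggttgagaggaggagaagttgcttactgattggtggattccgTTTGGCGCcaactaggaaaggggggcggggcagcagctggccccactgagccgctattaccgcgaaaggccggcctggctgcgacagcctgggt
MCM10: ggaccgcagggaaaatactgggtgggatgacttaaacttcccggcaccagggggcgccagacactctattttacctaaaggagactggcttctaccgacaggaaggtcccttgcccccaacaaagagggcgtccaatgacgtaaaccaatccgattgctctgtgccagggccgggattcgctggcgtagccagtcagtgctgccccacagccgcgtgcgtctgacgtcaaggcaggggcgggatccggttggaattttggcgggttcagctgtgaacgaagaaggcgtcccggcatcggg

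GINS2, CDC6 and CDC25A hold such an exact match and MCM10 does not. The MCM10 window does hold tttggcgg, which differs from TTTGGCGC in its last base and was not counted. CDC6 holds that stretch besides its match. Windows were listed for 39 of the 44 members, 53 in all since some genes have several starts, and none for MCM4, MCM5, POLD3, RPA2 and RPA3. Of the 53 windows, 21 (39.6%) held an E2F match, against 3.31% of all 35116 windows and 4.5% of those of the genes tested. The CCAAT box, counted on either strand, was in 31 of 53 (58.5%), against 34.6% of all windows. A progesterone response element (GNACA and TGTNC with any 3 bases between them) was in 0 of 53 and in 0.39% of all windows. These counts describe the letters of the windows and show no binding.

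Without AP21967 no member was called, and none had an unadjusted p under 0.05, where limma called 0.00917% of all genes higher (1 gene, FKBP5) and 0% lower and 214 and 217 passed the unadjusted threshold. The members ran from -0.16 ± 0.09 (SE, adjusted p = 1) for CDT1, with E2F1 (-0.10) and CDC45 (-0.10) next, to 0.15 ± 0.08 (SE, adjusted p = 1) for POLE2, after RFC3 (0.14) and PCNA (0.13). Since the receptor lines held PGR signal without AP21967 (11.77 in iWT and 11.43 in iKR with R5020), these are not arrays without receptor RNA.

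The difference of the R5020 effects with and without AP21967 was called for 0 members, against 1.41% of all genes higher and 0.687% lower. Before adjustment, limma's p was under 0.05 for 6 members in the higher and 1 in the lower direction. Among all 10911 genes tested it was so for 847 and 764. CDC25A came nearest at 0.44 ± 0.11 (SE, adjusted p = 0.087), followed by GINS2 at 0.40 ± 0.13 (SE, adjusted p = 0.18) and MCM10 at 0.37 ± 0.13 (SE, adjusted p = 0.23). The lowest were MCM4 at -0.33 ± 0.12 (SE, adjusted p = 0.24), PCNA at -0.21 and RRM2 at -0.18. A dependence of the 4 called rises on AP21967 was not called in this contrast.

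**Figure D4:**
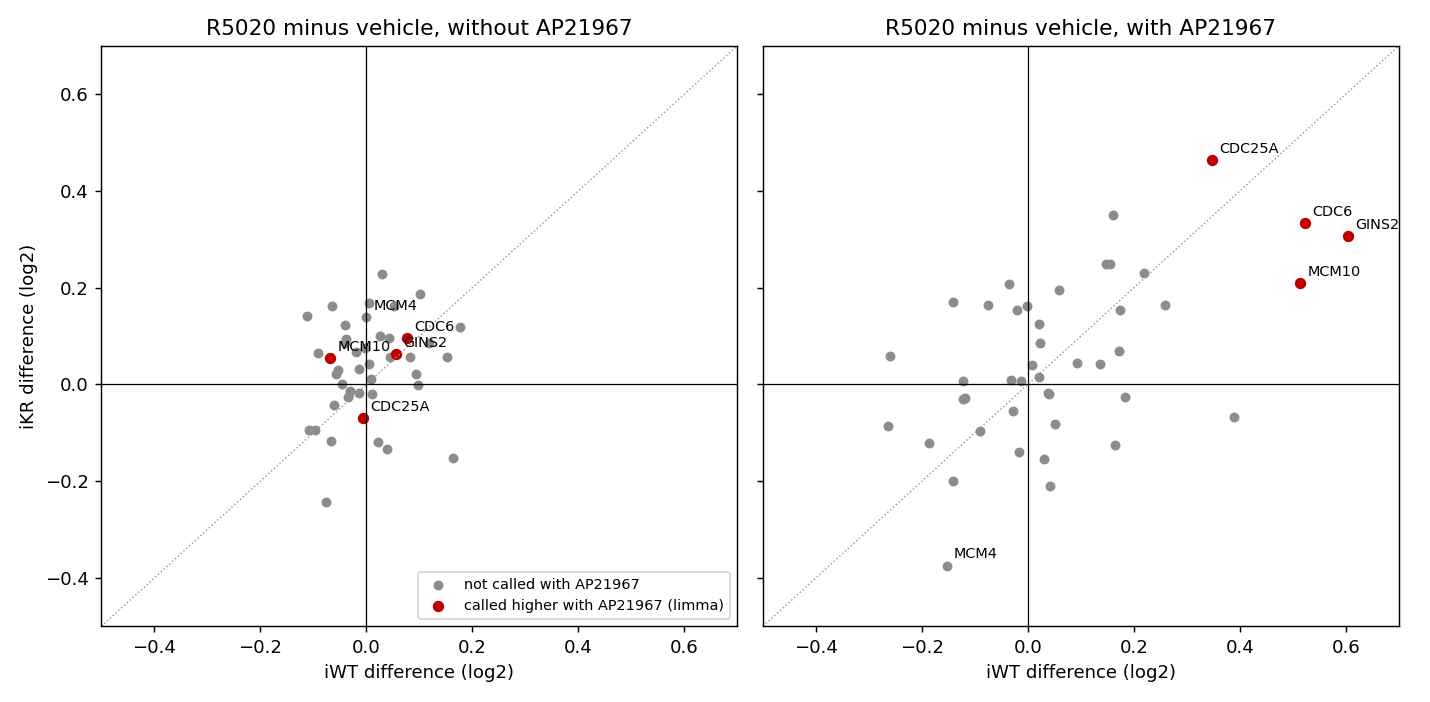
Each point is 1 of the 44 genes, with R5020 minus vehicle (log2, single arrays) for iWT along the horizontal axis and for iKR along the vertical one; the left panel holds the arrays without AP21967 and the right panel those with it, and the dotted line marks equal values. GINS2, CDC6, CDC25A and MCM10 (red) lie near the other genes on the left and at the upper right on the right.

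With AP21967, the array with both compounds was the highest of the 4 in both receptor lines for 15 members, against 19.4% of all genes. These were MCM2, MCM6, MCM7, CDC45, GINS1, RFC3, FEN1, ORC1, CHAF1B, E2F1 and BRCA1 besides the 4 called. CHAF1B differed by 0.26 ± 0.08 (SE, adjusted p = 0.083), BRCA1 by 0.22 ± 0.08 (SE, adjusted p = 0.093), E2F1 by 0.21 ± 0.08 (SE, adjusted p = 0.11), MCM2 by 0.20 ± 0.08 (SE, adjusted p = 0.13) and CDC45 by 0.20 ± 0.08 (SE, adjusted p = 0.14) in limma, all with a p under 0.05 before adjustment and none called. For BRCA1 a further probe set put the iWT difference at 0.15 and the iKR difference at -0.26, and for E2F1 one put both at 0.24.

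The nucleotide supply genes, which had the largest median difference of iWT from either other line among the role groups of the 44 genes, had small R5020 differences, from -0.09 for RRM1 to 0.04 for TK1. The clamp, clamp loader and RPA genes ran from -0.15 for RFC1 to 0.12 for RFC3, and the polymerases and primase from -0.17 for POLD3 to 0.09 for POLA2. In none of these 3 groups was a gene called.

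At the low end were MCM4 at -0.26 ± 0.09 (SE, adjusted p = 0.088), LIG1 at -0.18 ± 0.08 (SE, adjusted p = 0.21) and POLD3 at -0.17 ± 0.08 (SE, adjusted p = 0.19), none of them called. MCM4 differed by -0.15 in iWT and -0.37 in iKR by its first probe set. Its other 3 probe sets gave -0.08, 0.02 and -0.35 in iWT and 0.32, 0.34 and -0.04 in iKR, so the direction for MCM4 in iKR depended on the probe set.

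The wider replication list and the G1/S list held genes with larger R5020 differences. Of 36 further replication and S-phase genes, 5 rose and 1 fell with AP21967, where the shares over all genes tested were 5.23% and 6.25% for this and the next lists. ATAD2 rose by 1.31 ± 0.10 (SE, adjusted p = 9.6e-05), BLM, a RecQ helicase, by 0.44 ± 0.09, GINS3 by 0.37 ± 0.08, SLBP, which binds histone mRNA, by 0.37 ± 0.08 and ORC6 by 0.36 ± 0.08. PRIM2, the large primase subunit, fell, with -0.37 ± 0.09. Among 16 G1/S control genes, cyclin D1 (CCND1) rose by 0.74 ± 0.13 (SE, adjusted p = 0.0083), cyclin E1 (CCNE1) by 0.43 ± 0.08 (SE, adjusted p = 0.01) and E2F3 by 0.41 ± 0.08 (SE, adjusted p = 0.015), and CDKN1B, the p27 kinase inhibitor, changed by -0.75 ± 0.12 (SE, adjusted p = 0.0046). Of the 12 mitotic genes, CDK1 was the one called, at -0.38 ± 0.11 (SE, adjusted p = 0.049), and their median was -0.15. On the same arrays 5 of the 10 luminal markers, ESR1, FOXA1, GATA3, SPDEF and XBP1, fell, and the mean over the 10 was 12.81 in iWT and 12.39 in iKR with both compounds and 12.90 to 13.12 on the 8 other arrays. Their part in the R5020 values of the replication genes was not tested.

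Between the receptors, the R5020 difference with AP21967 in iKR minus that in iWT was positive for 22 members and negative for 22, with a median of 0.0032 (log2) over the members and 0.04 over all genes. It ran from -0.46 for CDC7 to 0.32 for RPA3. GINS2 and MCM10 were at -0.30 and -0.30, that is, higher in iWT. Each of these rests on 4 arrays with no replicate and has no test.

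Further probe sets, 24 in 18 of the genes, gave the same sign as the first in 23 of 24 for iWT minus iEV, 23 for iKR minus iEV, 19 for iKR minus iWT and 17 for R5020 with AP21967. Their medians were -0.33, -0.31, 0.09 and 0.08 (log2). The 3 further probe sets of MCM4 gave iKR minus iWT differences between -0.37 and -0.45 with neither compound, where the first gave -0.03.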

How the data were processed

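RNA from T47D lines was hybridized to Affymetrix human gene expression arrays, 1 per condition, 10 in all. The authors summarised the raw intensities by Robust Multi-array Average in R. The deposited log2 signals were therefore background-corrected and brought to a common distribution. The authors did not deposit present and absent calls among the values used here. Scaling to equal distributions removes any change shared by all genes.

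From the deposited log2 table, 19070 of 22277 probe sets had 1 gene symbol, 1043 had more than 1 and 2164 had none listed. Each of 11963 genes was represented by its probe set with the highest mean, and the 10911 whose highest array reached log2 6 were tested. Lines, inducer and ligand were taken from the sample labels. Linear models were fitted with limma 3.58.1 in R 4.3.3 over all tested genes, with Benjamini-Hochberg adjustment and calls at an adjusted p under 0.05. The R5020 effects with and without AP21967 were estimated from the 8 arrays of iWT and iKR, each line and inducer state having its own mean. AP21967 and the differences from iEV were fitted on the 6 arrays without R5020. The difference of iKR from iWT was fitted on 8 arrays with condition as a block. Lines or conditions serve as replicates in these fits. Differences between single arrays have no p, and counts past 1.5 fold describe them. The methods were tested on simulated data.

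All 44 genes and the other gene lists were chosen with earlier results of these data known. In each comparison all called members are named, at most 12 with full values, and with fewer than 6 called the 3 highest and 3 lowest; MCM2 to MCM7, PCNA, E2F1 and RRM2 are given on every array, while the other lists are given by counts, with some of their called genes named after their values were seen. Second probe sets and the values of TYMS, GINS2, CDC6, CDC25A and MCM10 on every array were added after their values were seen. Some genes of the wider replication list were not analysed here. Promoter windows came from RefSeq (GRCh38.p14), matched by symbol. Alternatives were cyclic loess, median centring, probe sets averaged per gene, probe sets ending in _x_at or _s_at dropped, other level filters, an intensity trend in limma, other sets of arrays, and 2.0 fold. Calculations used Python 3.11.15, numpy 2.4.6, pandas 2.3.3 and matplotlib 3.10.9. Arrays have no depth, and their number limits the precision.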

Additional observations from a re-analysis of the deposited data

Results flagged for a closer look

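With AP21967, R5020 minus vehicle ran in opposite directions in the receptor lines for 17 of 44 genes, by over 0.1 (log2) in both lines for POLE and MSH6. POLE, the catalytic subunit of polymerase epsilon, differed by -0.1411 (iWT) and 0.1713 (iKR). MSH6, a mismatch repair gene, differed by 0.1652 (iWT) and -0.1243 (iKR). With 1 array per condition the difference between the lines was not tested. A second MSH6 probe set gave 0.14 and -0.03. Another gave -0.12 and 0.19, the opposite order, but its mean signal of 5.63 lay below the filter level of log2 6.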

How the results depend on the processing

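The 0.05 calls of the members kept their direction under every alternative run, with no reversed call. Of the values of named genes under alternatives, 774 kept direction and side of the threshold, 34 lost it, 1 gained it (MCM4 with R5020 and AP21967 under an intensity trend, -0.26, adjusted p = 0.041) and 5 values not called changed sign. With R5020 and AP21967 the members' median of 0.0338 became 0.0672 with cyclic loess, 0.0113 with median centring, 0.0458 with probe sets averaged per gene, 0.0444 when probe sets ending in _x_at or _s_at were dropped and 0.0232 at a mean of log2 7 or more. Dropping those probe sets, which leaves 31 members, gave 1 called higher (CDC25A), and an intensity trend gave 1 called lower. CDC6 lost its call with averaged probe sets and without _x_at or _s_at sets (adjusted p = 0.059 and 0.14), and MCM10 with cyclic loess (0.059). The median of R5020 with minus without AP21967 was 0.0376 with cyclic loess, -0.0302 with median centring and -0.0253 without _x_at or _s_at sets. The AP21967 median was 0.0981 over all 10 arrays, 0.0782 without iEV and 0.0498 without iWT. The iWT against iEV median was -0.4143 with cyclic loess. For iKR against iEV, 1 member was called higher without _x_at or _s_at sets, with no level filter and with an intensity trend, and 18 were called lower without _x_at or _s_at sets. For iKR against iWT, 7 were called higher without _x_at or _s_at sets, and 7 to 22 when 1 condition was left out. Past 1.5 fold, members higher in iKR than in iWT numbered 0 with AP21967, 2 with both compounds and 1 with R5020 alone in the main setting. Under cyclic loess there was 1 with AP21967 and 1 with both compounds, and under averaged probe sets 0 with R5020 alone. Shares over all genes are not given for any count of members in this paragraph, so none of these counts can be called particular to these genes. R5020 in iWT with AP21967 had 0 members past 1.5 fold with median centring and 2 with averaged probe sets. For iKR minus iEV without AP21967, 4 were lower past 1.5 fold without _x_at or _s_at sets. At 2.0 fold, 1 member was lower in iWT than in iEV in each inducer state, and 0 passed in the comparisons of iKR with iEV or iWT and in R5020 in iWT. These 2.0 fold counts use 1 probe set per gene. The further MCM4 probe sets, not counted there, ran from -0.99 to -1.46 (log2) for iKR minus iEV. The cause of the shifts between settings was not tested. Adding the iEV arrays to the R5020 model leaves its values as they are by construction. With 2 or 3 residual degrees of freedom and 1 array per condition, small differences could not be resolved.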
